A study of Brachypodium distachyon with 11 samples.

Results

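Chromatin bound by ELF3 was compared between long days (LD) and short days (SD) in seedlings of the wild grass Brachypodium distachyon, and the regions that were listed in 1 photoperiod and not in the other are described here. Peaks of all 10 deposited lists on chromosomes 1 to 5 were merged wherever they shared at least 1 bp, which gave 37936 merged regions. A region was called LD-limited where each of the 3 ELF3 lists from LD held a peak in it and none of the 3 ELF3 lists from SD did, and SD-limited in the reverse case. There were 315 LD-limited regions, 0.83% of all merged regions, and 166 SD-limited regions, 0.438% of them. Presence in the ELF3 lists of LD and SD, and nothing else, selected these regions. The members were therefore chosen by the outcome of the LD against SD comparison itself, and their presence, fold enrichment and p-values in those lists are given as a description and were not tested.

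The libraries came from cultivar Bd21-3, from seedlings of 2 weeks grown at 20 °C on agar medium. In each genotype (ELF3_OX, phyC_OX, PRR37_OX) a tagged protein was expressed from a UBIQUITIN promoter and its chromatin was recovered with an anti-FLAG gel, so every library of the study is from an overexpressing line in which the protein is not under its own promoter. ELF3_OX seedlings were harvested in LD and in SD at zeitgeber time (ZT, the hour of the day counted from dawn) 0, 4 and 20, and in constant light (LL) at ZT0, with 1 library for each. If these plants had the same days as the study's flowering trials, ZT20 falls at the end of the light in LD and in the night in SD, and light state and photoperiod cannot be told apart at that hour. The remaining lists are a pair of phyC_OX libraries (LD, ZT20) and 1 PRR37_OX library (LD, ZT4), and they were read at the same regions together with the LL list. The input sample of the series carries conflicting harvest times and had no peak list analysed here.

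ELF3 is a scaffold protein of the evening complex, a repressor of the circadian clock in which, in Arabidopsis, LUX makes the contact with DNA and ELF4 is the other partner. In long-day grasses such as barley, loss of ELF3 gives early flowering that no longer depends on day length. PHYC is a phytochrome, a receptor of red and far-red light, and PRR37, also called PPD1, is a pseudo-response regulator that promotes flowering of grasses in long days. The comparison of the lists addresses whether the places bound by ELF3 differ with day length.

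The lists hold all peaks that MACS2, the authors' peak caller, gave at p under 0.1, and the study's threshold of q under 0.01 had not been applied to them. The 10 lists had 12345 to 16458 peaks, of which 34 to 526 were past q under 0.01. Between 67.2% and 95.5% of the peaks of a list had a q-value of 1. The 3 ELF3 lists of LD had 14346 to 15577 peaks with a median length of 240.5 to 242 bp, and those of SD had 13666 to 14823 peaks with a median length of 252 to 267 bp. The shortest peak of a list was 179 to 184 bp in LD and 192 to 202 bp in SD. Median peak lengths of LD and SD lists thus did not overlap, while the list lengths did, and the part of peak length in the counts of limited regions was not tested. Sequencing depth was unknown.

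The limited regions were weak in the lists that chose them. No LD-limited and no SD-limited region was past q under 0.01 in any of its 3 lists, and 1 region of each class was past q under 0.1. The q-value was 1 in all 3 lists at 257 LD-limited regions (81.6%) and at 147 SD-limited regions (88.6%). The fold enrichment over background, as the authors' caller gave it, had a median of 2.199 at ZT0, 2.208 at ZT4 and 2.220 at ZT20 at LD-limited regions. At SD-limited regions its median was 2.230 at ZT0, 2.118 at ZT4 and 2.048 at ZT20. The medians of −log10 p were 1.85, 1.94 and 1.96 at these hours at LD-limited regions, and 2.08, 1.65 and 1.59 at SD-limited regions. Set among the peaks of their own list by −log10 p, LD-limited regions lay at a median percentile of 39.4, 44.0 and 39.7, and SD-limited regions at 44.3, 32.9 and 26.5. The median of both classes was thus below the middle of every list that chose them. Members were spread widely, with upper quartiles at percentiles of 51.8, 53.5 and 56.7 in LD and 55.8, 52.2 and 46.8 in SD.

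**Figure D1:**
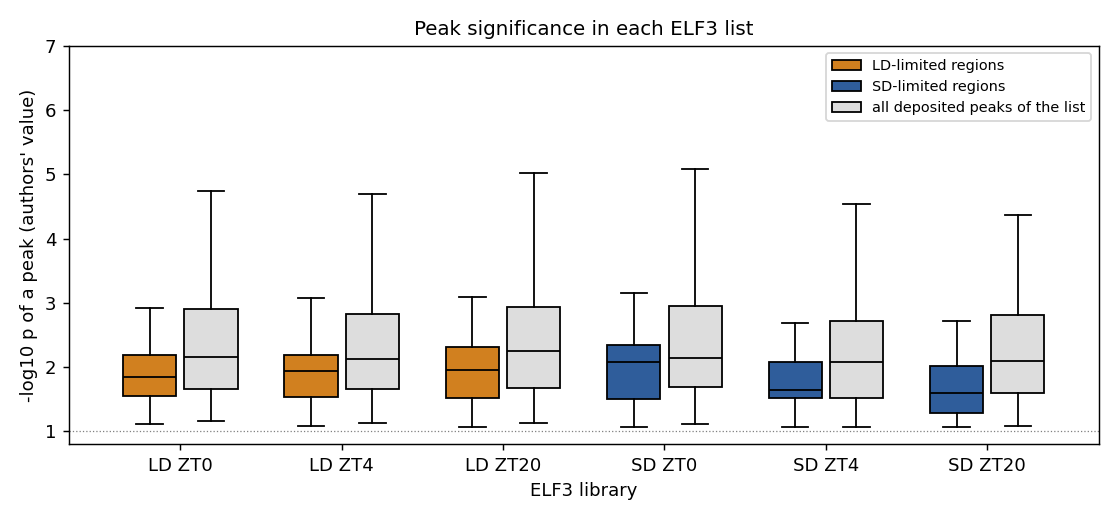
Boxes show the −log10 p of the authors' peaks at LD-limited and SD-limited regions in each of the 3 ELF3 lists that chose them, beside all deposited peaks of that list. A box spans the quartiles with the median as a line, whiskers run from the 5th to the 95th percentile, and the dotted line at 1 is the p under 0.1 at which the lists were called. The medians of the limited regions, 1.59 to 2.08, lie below that of their own list in all 6 libraries.

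The 3 folds of a limited region lay close together, but every member had to be listed at all 3 hours. This closeness therefore describes the selected regions and is not a result about the day, and no such ratio is given for mixed regions. The highest of the 3 folds over the lowest had a median of 1.18 at LD-limited regions and 1.19 at SD-limited regions, and it was at most 1.5 at 305 and 156 of them. The weakest of the 3 peaks, by −log10 p, was the ZT4 peak at 139 of 315 LD-limited regions, against 89 at ZT0 and 87 at ZT20. It was also most often the ZT4 peak at SD-limited regions, at 65 of 166, against 46 at ZT0 and 55 at ZT20. Ties were given to the earliest hour. Over all its peaks the ZT4 list also had the lowest median −log10 p of its photoperiod. This was 2.119 in LD, against 2.161 at ZT0 and 2.253 at ZT20, and 2.085 in SD, against 2.146 and 2.09. No such counts are given for mixed regions, so these describe the members only. The folds and p-values come from separate peak calls and are not measurements on 1 scale.

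Merged regions that were listed in 3 of the 6 ELF3 lists of LD and SD, with both photoperiods among the 3, served as the nearest comparison (2961 regions, called mixed regions below). The lowest fold over the lists had a median of 2.017 at LD-limited regions, 1.959 at SD-limited regions and 2.004 at mixed regions. The highest fold gave 2.40, 2.36 and 2.43 at the same 3 sets, each over 3 peaks a region, so by peak strength the limited regions lay beside the mixed regions. At the 4802 regions listed in all 6 lists the lowest fold was 2.36 and the highest 3.29 in the median, but these are taken over 6 peaks a region, and a region listed in every library had to pass the listing threshold 6 times.

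The deposition threshold sets the edge of both classes. The weakest of the 3 peaks had a −log10 p of at most 1.1 at 43 LD-limited and 43 SD-limited regions, which is just inside the listing. Just outside the rule, 765 regions had a peak in all 3 LD lists and in exactly 1 SD list, and at these the SD peak had a −log10 p of 1.02 to 7.43 with a median of 2.08. That SD list was ZT20 at 410 regions, ZT0 at 209 and ZT4 at 146. On the SD side, 487 regions had all 3 SD lists and exactly 1 LD list, with a −log10 p of 1.08 to 4.80 and a median of 1.78 in the LD peak, and the LD list was ZT0 at 196, ZT4 at 148 and ZT20 at 143 of them. A further 1245 regions were listed in 2 of 3 LD lists and no SD list, and 1010 in 2 of 3 SD lists and no LD list. Regions that miss the rule by 1 list thus outnumbered the members in both classes. A miss can fall on any of the 6 lists, however, while membership is a single pattern of presence. The larger number therefore does not show that members are few for their pattern.

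When only peaks with p under 0.01 counted as present, 146 regions were LD-limited and 79 SD-limited, and 58 and 18 of these were members as deposited. At p under 0.001 the counts were 46 and 22, with 1 and 0 members among them, and at q under 0.01 they were 9 and 1, with no member among them. Most regions that were limited to 1 photoperiod at a higher threshold were therefore not members as deposited.

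**Figure D2:**
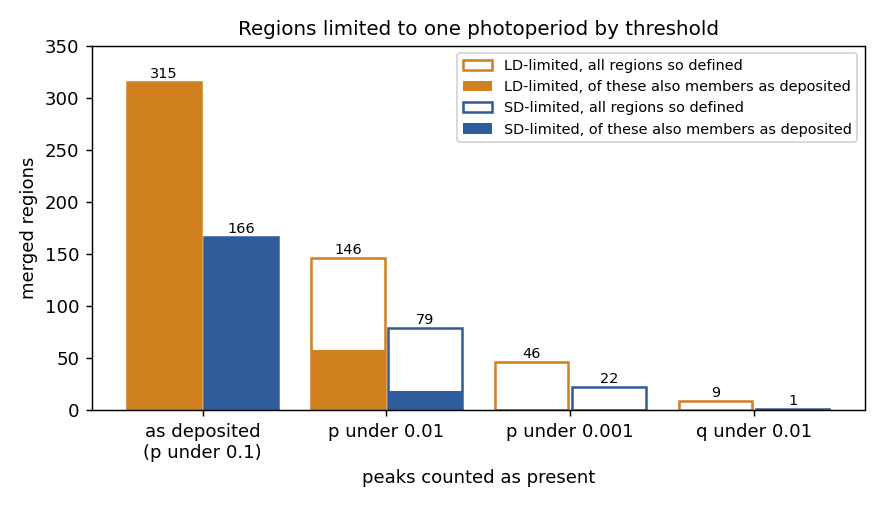
Bars give the number of merged regions that were LD-limited or SD-limited when peaks of the 6 ELF3 lists counted as present as deposited (p under 0.1), at p under 0.01, at p under 0.001 and at q under 0.01. Outlined bars are all regions so defined and filled bars those that were also members as deposited, so that at p under 0.01 the 146 LD-limited regions hold 58 members and the 79 SD-limited regions hold 18.

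The distance to the nearest ELF3 peak of the other photoperiod had a median of 2715 bp at LD-limited regions and 2355.5 bp at SD-limited regions. Such a peak lay within 200 bp of 24 LD-limited and 16 SD-limited regions, within 1 kb of 84 and 55, and within 10 kb of 273 and 147. These are shares of 7.62%, 26.7% and 86.7% of LD-limited regions and 9.64%, 33.1% and 88.6% of SD-limited regions. Other merged regions without an SD peak (13968) had an SD peak within these distances in 7.54%, 29.4% and 88.0% of cases, and other merged regions without an LD peak (14068) had an LD peak there in 7.28%, 29.3% and 88.1%, so the members were near these shares. The summits of the 3 peaks of a region spread over a median of 52 bp at LD-limited and 89 bp at SD-limited regions, against 63 bp at mixed regions, and the merged regions themselves were 301, 401 and 344 bp wide in the median. At 141 LD-limited regions at least 1 of the 3 peaks was shorter than the shortest peak of any SD list, and at 3 of them all 3 peaks were. The reverse could not occur at SD-limited regions, because the shortest SD peak (192 bp) is longer than the shortest LD peak (179 bp). No share of such short peaks is given for other regions, so the 141 describes the lists and is not a difference between the classes.

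The LD-limited region with the highest folds lay 1437 bp outside LOC100832640 on chromosome 2 (chr2:57256920-57257126). Its fold enrichment was 3.87 at ZT0, 3.40 at ZT4 and 3.84 at ZT20 in LD, with −log10 p of 4.51, 3.65 and 4.43. It was also listed in LL at 3.53 and in the PHYC pair at 3.32 and 3.14, and not in the PRR37 list. It was the 1 LD-limited region with p under 0.001 in all 3 lists. Because no SD list holds a peak there, it counts as LD-limited at that threshold by construction.

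Next came a region 1610 bp outside LOC100830098 (chr2:35820827-35821143), with folds of 2.75, 2.74 and 3.28 at ZT0, ZT4 and ZT20. The third lay 1190 bp from LOC112272132, a gene for a small nuclear RNA, the class of RNA that forms the core of the spliceosome (chr3:2771369-2771680). Its folds were 2.96, 3.33 and 2.73, with 3.40 in LL and 2.82 and 2.66 in the PHYC pair. A region at 1 end of LOC100831805 (chr1:54073583-54074025) had 2.75, 2.63 and 2.95. At 1181 bp from the long non-coding RNA gene LOC112269450 (chr5:11949740-11949964) the folds were 3.00, 2.63 and 2.98, and this region was listed in all 4 lists outside the rule, with 3.43 in LL, 3.82 and 2.92 in the PHYC pair and 2.75 in PRR37.

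The other 5 of the 10 strongest LD-limited regions had folds of 2.54 to 3.14 over all 3 hours. They lay inside LOC104585414 (chr5:23240228-23240520), 1905 bp outside LOC100843649 (chr2:45728132-45728509), inside LOC100831581 (chr1:62824754-62824949), over 2 kb from any gene (chr2:32069658-32069940) and 1826 bp outside LOC100839589 (chr2:56258755-56259048). Of the 10, 9 were listed in LL and 2 in the PRR37 list.

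Among SD-limited regions the one at 1 end of LOC100838335 (chr1:2541069-2541342) had the highest value of its lowest fold, with 2.87, 2.81 and 3.17 at ZT0, ZT4 and ZT20 in SD and −log10 p of 3.30, 2.71 and 3.48. It was listed in LL at 3.63 and in the first PHYC library at 3.58. Inside LOC100843159 (chr2:3283563-3283801) the folds were 2.92, 2.73 and 3.21. A region at 1 end of LOC100846426 (chr3:939057-939451) had the highest single fold of the class, 3.53 at ZT0 against 2.78 at ZT4 and 2.69 at ZT20. That peak was the 1 SD-limited peak past q under 0.1, and the region was listed in all 4 lists outside the rule, at 2.68 in LL, 2.48 and 2.53 in the PHYC pair and 2.12 in PRR37.

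The other 7 of the 10 strongest SD-limited regions had folds of 2.33 to 2.84. They lay 673 bp outside LOC100837302 (chr1:65847458-65847734), at 1 end of LOC100834731 (chr3:49213183-49213425), LOC100824326 (chr1:64506984-64507433) and LOC100842697 (chr4:42843290-42843743), inside the long non-coding RNA gene LOC112270639 (chr2:3605533-3605806) and the pseudogene LOC100833326 (chr1:13090369-13090614), and over 2 kb from any gene (chr4:11283520-11284122). The region in LOC112270639, with folds of 2.50, 2.41 and 2.58, was in no list outside the rule, and the region at LOC100842697 was in all 4. Of the 10, 5 were listed in LL and 3 in the PRR37 list.

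**Figure D3:**
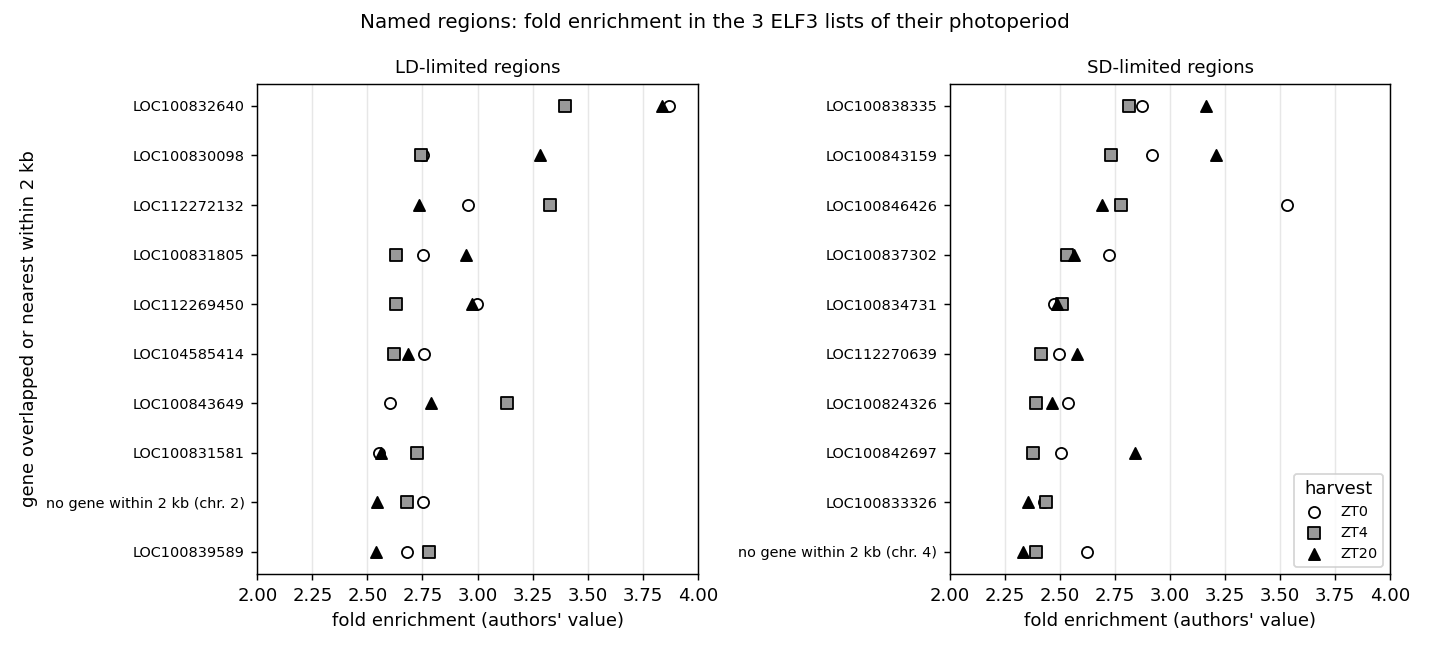
Each row is one of the 10 LD-limited (left) or 10 SD-limited (right) regions with the highest value of their lowest fold, named by the gene overlapped or nearest within 2 kb, and the x axis is the authors' fold enrichment in the ELF3 list of ZT0, ZT4 and ZT20 of that photoperiod. LD-limited regions run from 2.54 to 3.87 and SD-limited regions from 2.33 to 3.53, with no hour highest throughout.

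The LL, PHYC and PRR37 lists had no part in choosing the regions. The LL list held a peak at 197 of 315 LD-limited regions, 62.5% (95% Wilson interval 57.1 to 67.7%, which covers the counting of regions only), and at 70 of 166 SD-limited regions, 42.2% (34.9 to 49.8%). It held one at 52.6% of mixed regions and at 42.3% of all merged regions, which include those present only because that list has a peak there. LD-limited regions thus stood above the mixed regions in LL and SD-limited regions below them, in a single LL library. Where regions were listed in LL, their fold there had a median of 2.26 at LD-limited and 2.30 at SD-limited regions.

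In the PHYC pair, 119 and 110 LD-limited regions were listed in the first and second library (37.8% and 34.9%), against 56 and 51 SD-limited regions (33.7% and 30.7%). The background was 34.2% and 31.5% of all merged regions and 37.8% and 30.7% of mixed regions, so both classes lay near it. Both PHYC lists held 56 LD-limited regions (17.8%) and 22 SD-limited regions (13.3%), beside 18.1% of mixed regions and 19.4% of all merged regions. The labels do not say whether the pair came from separate plants.

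The PRR37 list went the other way. It held 73 LD-limited regions, 23.2% (18.9 to 28.1%), and 56 SD-limited regions, 33.7% (27.0 to 41.2%), beside 32.9% of mixed regions and 33.1% of all merged regions. When only PRR37 peaks with p under 0.01 were counted, 21 LD-limited regions (6.667%) and 9 SD-limited regions (5.422%) were listed, against 10.50% of mixed regions, so the direction between the classes turned.

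Over the 4 libraries the share listed at LD-limited minus that at SD-limited regions was 20.4 percentage points in LL, 4.04 and 4.198 in the PHYC pair and −10.6 in PRR37. The mean difference was 4.51 ± 12.6 points (SD, n = 4 libraries), positive in 3 of 4. An exact two-sided sign-flip permutation test over libraries gave p = 0.625. With 4 libraries it cannot give a p below 0.13, so no difference could have passed it. The libraries are also of different proteins, so the mean describes these 4 lists only. LD-limited minus mixed regions gave 1.09 ± 8.28 points (exact p = 0.75) and SD-limited minus mixed regions gave −3.42 ± 5.15 points (exact p = 0.375), with n = 4 libraries in each, and the p-values of these 3 comparisons are unadjusted. The mean rests on the LL library, without which it was −0.773 points. With each list shortened to its 12344 strongest peaks, the LL difference was 8.11 points (40.6% of LD-limited and 32.5% of SD-limited regions) and the PRR37 difference −11.6 points.

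Peak length differed between these lists as well. The median peak was 248.5 bp in LL, 251 and 248 bp in the PHYC pair and 271 bp in PRR37, and the shortest peak was 184 bp in LL, 186 and 182 bp in the PHYC pair and 190 bp in PRR37. The LL list was the longest of the 10, with 16458 peaks, and the PRR37 list had 12933. The regions also differed in width, with medians of 301 bp at LD-limited, 401 bp at SD-limited and 344 bp at mixed regions. Their width includes the LL, PHYC and PRR37 peaks that were merged into them. The part of list length, peak length and region width in the shares was not tested, apart from the shortened lists above.

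**Figure D4:**
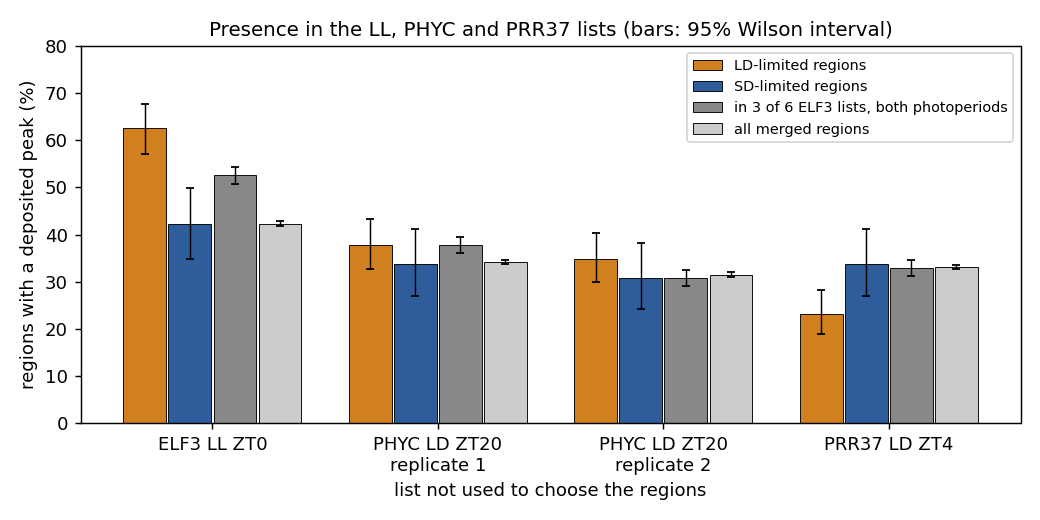
Bars give the percentage of LD-limited, SD-limited, mixed and all merged regions with a deposited peak in the LL list, the 2 PHYC lists and the PRR37 list, with 95% Wilson intervals. LD-limited regions stand at 62.5% in LL against 42.2% of SD-limited regions, and at 23.2% in PRR37 against 33.7%.

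Of the LD-limited regions, 64 were in none of these 4 lists (20.3%), 92 in 1, 89 in 2, 51 in 3 and 19 in all 4 (6.03%). Of the SD-limited regions, 46 were in none (27.7%), 44 in 1, 47 in 2, 21 in 3 and 8 in all 4 (4.82%). No such shares are given for mixed or all merged regions, so these counts have no background beside them and are a description only. Among the LD-limited regions in none, those with the highest lowest fold were at 1 end of LOC100827181 (chr3:12867900-12868142, folds 2.46, 2.50 and 2.49), 836 bp outside LOC100831541 (chr2:20321428-20321691, folds 2.61, 2.63 and 2.43) and inside LOC100831037 (chr2:36400137-36400370, folds 2.58, 2.57 and 2.40). Their SD-limited counterparts, after LOC112270639, were at 1 end of LOC100838151 (chr1:69492779-69493109, folds 2.33, 2.36 and 2.27) and 1667 bp outside LOC100829537 (chr4:16005712-16005949, folds 2.72, 2.60 and 2.27). These 5 regions fall outside the naming rule and were chosen after their values were seen.

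The regions were placed against genes of the RefSeq table of assembly Brachypodium_distachyon_v3.0, without strand, so a gene end is either its start or its stop. The centre lay within 500 bp of an end of a protein-coding gene at 47.6% of LD-limited regions (95% Wilson interval 42.2 to 53.1%) and at 42.8% of SD-limited regions (35.5 to 50.4%). Mixed regions had 43.8% and all merged regions 42.1% in this position, while regions listed in all 6 ELF3 lists had 62.2%. Both limited classes thus lay nearer to the merged regions as a whole than to the recurrent ELF3 regions. Another 20.6% of LD-limited and 22.9% of SD-limited regions lay inside a gene over 500 bp from its ends, beside 20.1% of all merged regions, and 17.8% and 21.1% lay over 2 kb from a protein-coding gene, beside 20.8%. Of the regions in all 6 lists, 12.6% and 14.2% were in these positions.

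**Figure D5:**
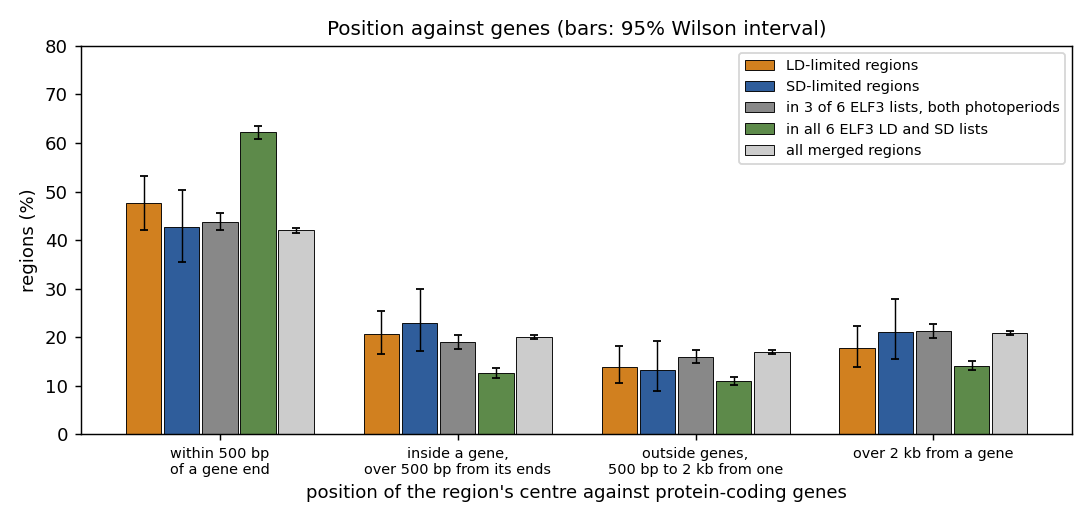
Bars give the percentage of regions in each of 4 positions of the region's centre against protein-coding genes, with 95% Wilson intervals, for LD-limited, SD-limited and mixed regions, regions in all 6 ELF3 lists and all merged regions. Within 500 bp of a gene end stand 47.6% of LD-limited and 42.8% of SD-limited regions, against 62.2% of regions in all 6 lists.

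On chromosomes 1 to 5 there were 84, 91, 71, 46 and 23 LD-limited regions and 54, 41, 32, 25 and 14 SD-limited regions. As shares these were 26.7, 28.9, 22.5, 14.6 and 7.30% of LD-limited and 32.5, 24.7, 19.3, 15.1 and 8.43% of SD-limited regions, beside 29.9, 23.0, 23.2, 14.9 and 8.98% of all merged regions. Neighbours of the same class made up 10 pairs of LD-limited and 2 pairs of SD-limited regions within 10 kb, and 50 and 20 pairs within 100 kb. The gene overlapped or nearest within 2 kb was protein-coding at 247 LD-limited and 126 SD-limited regions, a long non-coding RNA gene at 15 and 11 and a pseudogene at 9 and 7, and 34 and 21 regions were over 2 kb from any gene. No counts of pairs or gene types are given for mixed or all merged regions, and pairs rise with the size of a class. These counts are therefore a description only and show neither clustering nor a preference for a type of gene.

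Many genes with a limited region also had an ELF3 peak of the other photoperiod elsewhere. With gene bodies extended by 2 kb, 344 of 25449 protein-coding genes (1.35%) had an LD-limited region and 187 (0.735%) an SD-limited one. Of the 344 genes, 221 (64.2%) had a peak elsewhere in at least 1 ELF3 list of SD and 100 (29.1%) in all 3, beside 60.7% and 27.9% of all protein-coding genes. Of the 187, 118 (63.1%) had a peak elsewhere in at least 1 ELF3 list of LD and 62 (33.2%) in all 3, beside 61.0% and 30.3% of all genes. No peak of the other photoperiod was listed at 123 of the 344 and 69 of the 187 genes. The shares of all genes count a peak anywhere in the window. At genes with a limited region, part of the window holds no such peak by rule. Gene length was not matched either, so the shares are not like measures and their difference was not tested.

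Both classes met at 2 genes. LOC100837719 on chromosome 1 held an LD-limited region inside it (chr1:49099917-49100309, folds 2.02, 2.05 and 2.09) and an SD-limited region, also inside (chr1:49096782-49097043, folds 3.29, 2.30 and 2.53). LOC106865923 had an LD-limited region at 1 end (chr1:61389948-61390249, folds 1.91, 1.98 and 2.16) and an SD-limited region inside (chr1:61388473-61388987, folds 2.13, 2.04 and 1.96).

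None of the 30 identifiers of flowering and clock genes that the study names was found in the gene table, so regions at those genes were not analysed here. Of 39 protein-coding genes to which the table gives a symbol of their own, 0 had a limited region within 2 kb. Of all protein-coding genes 1.35% had an LD-limited and 0.735% an SD-limited region, so a list of 39 need not hold any.

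Among small RNA genes, 3 of the 310 microRNA genes had an LD-limited region within 2 kb (0.968%) and 1 an SD-limited one (0.323%), beside 1.35% and 0.735% of protein-coding genes. The window is the gene body extended by 2 kb, so its size depends on gene length. Length was not matched here or for the non-coding genes below, and the shares of unlike gene classes are therefore not comparable. An LD-limited region overlapped one end of MIR167G (chr1:71823400-71823637, folds 2.19, 2.09 and 2.59), a gene of the miR167 family, which in Arabidopsis targets auxin response factors. Another overlapped one end of MIR398B (chr3:21960872-21961092, folds 2.34, 2.03 and 2.11), of the miR398 family, which in Arabidopsis targets copper/zinc superoxide dismutases. The third was outside MIR5185B (chr5:6131074-6131316, folds 2.34, 2.48 and 1.96), and the SD-limited region was near MIR7768B (chr5:21417675-21418015, folds 2.33, 1.96 and 1.79). The region at MIR167G and that near MIR7768B were in none of the 4 lists outside the rule.

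Of the transfer RNA genes of the table, 6 of 528 had an LD-limited region within 2 kb (1.14%) and 5 an SD-limited one (0.947%). Their folds were 1.59 to 2.57 and 1.91 to 2.54. Gene length was not matched, so these shares are not read against those of protein-coding genes. The region at LOC100824326, among the strongest of the SD-limited class, was the one near a TRNAM-CAU gene, which encodes a methionine transfer RNA. Small nucleolar RNAs guide the modification of ribosomal RNA. Of their 299 genes, 4 (1.34%) had an SD-limited region within 2 kb and 0 an LD-limited one, beside 0.735% and 1.35% of protein-coding genes. The 4 genes lie at only 2 regions, so these counts show no preference for a photoperiod. One of these regions (chr2:26285164-26285621, folds 2.03, 2.12 and 2.05) lay near 3 neighbouring small nucleolar RNA genes. Of 86 small nuclear RNA genes, LOC112272132 above was the 1 with a limited region (1.16%, LD-limited). No count of these non-coding genes was tested against other genes.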

How the data were processed

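The 10 deposited peak lists (1 per library, not pooled) were read with samples grouped by GEO's labels. The published methods name bwa for mapping, removal of duplicate reads, MACS2 for peak calling and a q under 0.01; the submitters' processing notes name Trimmomatic, Bowtie2, Picard, deepTools, MACS2 and an Arabidopsis build, although the lists carry Brachypodium chromosome names. For each peak the deposited lists give the authors' fold enrichment (a ratio), −log10 p, −log10 q and a score equal to the whole part of 10 times −log10 p. The lowest −log10 p was 1.00 to 1.01 in every list, so p-values reach 0.1 in the deposited lists. Whether the input served as control is not stated.

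The 142794 peaks on chromosomes were merged (at least 1 bp shared) and the 7 elsewhere left out. The members, gene lists and tests were chosen with earlier results of these data known. Shares have 95% Wilson intervals, and the libraries entered an exact permutation of signs, two-sided. Named regions are, per class, the 10 with the highest value of their lowest fold, any past q under 0.01 (0) and any at a flowering or clock gene; genes are those overlapped or else nearest within 2 kb. A search of the table for flowering genes by symbol is not reported here. The gene table was used for neighbours because 65.2% of 26977 summits lay within 500 bp of a gene end, against 18.4 to 21.2% with genes shifted; printed coordinates are those of merged deposited peaks, counted from 1. No sequence was used here, so the motif search was not run. Alternatives were higher thresholds for presence, lists of equal length, wider absence, merging over 6 lists, single libraries left out, 1000 bp and all annotated genes. Merging and classing were tested on simulated data and run with pandas 2.3.3, numpy 2.4.6 and scipy 1.17.1 under Python 3.11.15; figures used matplotlib 3.10.9.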

Additional observations from a re-analysis of the deposited data

Results flagged for a closer look

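The share of regions in the PRR37 list differed by −10.56 percentage points between LD-limited (23.2%) and SD-limited regions (33.7%), while the LL list and both PHYC lists had a positive difference. With PRR37 peaks at −log10 p above 2 the difference was 1.25 points (6.667% and 5.422%), and all 4 libraries were then positive. PRR37 is a single library, and whether its difference departs from that of the other libraries was not tested. Among peaks outside the chromosomes, which no comparison above used, 6 libraries had a peak on scaffold_12, with folds of 2.01 to 3.32. These were ELF3 in LD at ZT0 (2.87) and ZT20 (2.30), in SD at ZT0 (3.31) and in LL (2.92), and the PHYC pair (3.32 and 2.01), so the scaffold was not limited to 1 photoperiod.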

How the results depend on the processing

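Counts of limited regions depended on the mark of presence. Instead of 315 LD-limited regions there were 146 at −log10 p above 2, 46 above 3, 9 at q under 0.01 and 198 with lists of equal length, and instead of 166 SD-limited regions 79, 22, 1 and 150. With equal lists, 158 LD-limited and 95 SD-limited members were kept. Without a single ELF3 library, the rule being looser by 1 list, the counts were 461 to 744 LD-limited and 309 to 559 SD-limited regions, which held all members. Absence extended to 200 bp (291 and 150) or 1000 bp (231 and 111) and merging over the 6 lists (315 and 166) stayed within 1.5 times. The mean LD-limited minus SD-limited share in the 4 other lists was −0.773 points without LL and 9.54 without PRR37, the lowest and highest on leaving out a library. It was 6.12 at −log10 p above 2 (exact permutation p = 0.13, the smallest that 4 libraries can give), 1.25 with equal lists and 4.64 with the PHYC pair averaged. With 4 libraries or fewer none of these tests could have passed, so they do not decide whether the classes differ. Within 1000 bp of a gene end lay 62.5% of LD-limited and 59.6% of SD-limited regions, against 57.9% of all merged regions, since the window is wider. LD and SD samples were not paired, because no replicate number pairs samples across groups and the LD and SD lists that share an hour chose the regions. The sign-flip test compared the 2 classes of regions within each library. Depth is unknown, so absence from a list is not absence of binding.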
